A study of Mus musculus with 2 samples.

Results

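The genes described here are 10 genes of fatty acid synthesis and its control, Acly, Acaca, Acacb, Fasn, Me1, Elovl6, Scd1, Scd2, Srebf1 and Lpin1, out of 32285 genes listed in the count matrices of both libraries. They were chosen by name, and their raw counts were followed through cell classes that marker genes defined. The tissue was liver tumor of C57BL/6J mice, measured by droplet-based single-cell sequencing of transcript 3′ ends, in which each captured molecule is counted once by its unique molecular identifier (UMI). The hKO library came from mice in which tamoxifen activates a Cre recombinase driven by the albumin promoter (Alb-CRE-ER) to remove Fabp5, a fatty acid binding protein, from hepatocytes. The WT library came from wild-type littermates, which were also given tamoxifen; the labels do not say whether they carry the Cre. In both groups mice aged 6 to 8 weeks received 5 injections of 100 mg/kg, each after 16 h of fasting and 3 days apart. Beginning 2 weeks after the final injection, they were kept for 15 months on a diet labelled CD-HFD. Each library is 1 pool of 2 to 3 tumors, so no test of the genotype was possible. Every interval given below is a 95% interval for counting error only and says nothing of the spread between mice.

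Fatty acid synthesis converts citrate from mitochondria into long-chain fat. Citrate is cleaved to acetyl-CoA, acetyl-CoA is carboxylated to malonyl-CoA, and fatty acid synthase joins these units into palmitate with NADPH as the reductant. Palmitate is then lengthened and desaturated, and the product enters glycerolipids. In liver the pathway is switched on by insulin and carbohydrate feeding, largely through the transcription factor SREBP-1c, and raised synthesis is a common trait of fatty liver and liver cancer.

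After filtering, 10402 hKO and 9076 WT cells were kept, with 48372603 and 44720349 UMIs. Of 44 clusters, markers named all but 4. Comparisons were made in the 11 cell classes that held 100 cells or more in both libraries. A total of 73 barcodes occurred in both libraries. The hepatocyte-like class held 1116 hKO cells (3735819 UMIs, median 1510.5 per cell) and 438 WT cells (3309665 UMIs, median 1757.5 per cell). Hepatocyte-like cells of the libraries hardly shared a cluster, apart from 23 WT cells in cluster 22. The hKO cells formed clusters 4, 22 and 25, whereas the WT cells formed cluster 43, with 307 cells, and cluster 44, with 107 cells at a median of 21977 UMIs that supplied 77.9% of the class's WT UMIs. Between 9 and 12 of the 12 hepatocyte markers were raised in each of these clusters. Median mitochondrial shares of hepatocyte-like cells were 18.6% in hKO and 9.74% in WT, and 12 abundant hepatocyte genes made up 10.4% of the UMIs in hKO and 5.94% in WT. Fabp5, the targeted gene, had 51 UMIs (13.7 CPM, which is UMIs per 1000000 UMIs of the class) in hKO hepatocyte-like cells and 123 UMIs (37.2 CPM) in WT ones, a log2 ratio of hKO over WT of −1.44 (−1.95 to −0.96). The Fabp5 ratio was also below 0 in neutrophil-like cells, with 25.9 CPM in hKO and 72.4 CPM in WT (−1.48, −2.34 to −0.70). In monocyte-like cells it was −0.90 (−1.53 to −0.27). It was above 0, with intervals that excluded 0, in T-like (0.87), conventional dendritic-like (0.67) and macrophage-like cells (0.37). A lower Fabp5 level was thus not particular to hepatocyte-like cells. The deleted exons are not given in the sources used here, so a 3′ tag may lie outside them and not check the deletion.

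The RefSeq promoter windows of the 3 members that were called different between the libraries, in the comparisons given below, and have an entry in the table used are shown first (build GRCm38.p6, 300 bases each, most of them upstream of the start site). Scd1 and Scd2 have no entry, and for Me1 the first of 2 annotated start sites is given. Capitals mark matches to the GC box GGGCGG or the CCAAT box, searched on both strands. The windows are Acly at chr11:100527951-100528250, minus strand; Me1 at chr9:86695865-86696164, minus strand; and Lpin1 at chr12:16610917-16611216, minus strand.
Acly: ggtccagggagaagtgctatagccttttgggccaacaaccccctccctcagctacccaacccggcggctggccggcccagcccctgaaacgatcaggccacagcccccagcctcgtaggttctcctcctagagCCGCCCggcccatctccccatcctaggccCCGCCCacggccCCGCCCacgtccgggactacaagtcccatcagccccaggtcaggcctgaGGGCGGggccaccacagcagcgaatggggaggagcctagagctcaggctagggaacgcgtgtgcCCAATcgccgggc
Me1: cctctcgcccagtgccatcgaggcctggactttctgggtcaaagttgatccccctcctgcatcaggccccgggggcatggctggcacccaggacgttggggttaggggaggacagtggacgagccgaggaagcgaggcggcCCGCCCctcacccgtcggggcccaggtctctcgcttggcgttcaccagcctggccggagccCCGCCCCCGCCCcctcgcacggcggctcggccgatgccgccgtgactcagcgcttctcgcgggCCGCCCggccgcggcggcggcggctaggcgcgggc
Lpin1: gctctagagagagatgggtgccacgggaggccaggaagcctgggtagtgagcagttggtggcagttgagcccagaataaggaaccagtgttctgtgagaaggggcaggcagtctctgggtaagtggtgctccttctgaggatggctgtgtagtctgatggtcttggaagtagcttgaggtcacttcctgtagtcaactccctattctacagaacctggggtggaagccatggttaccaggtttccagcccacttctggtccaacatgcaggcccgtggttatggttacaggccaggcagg
The Me1 window held 4 GC boxes, the Acly window 4 GC boxes and 1 CCAAT box, and the Lpin1 window neither motif. The Fasn window had 3 CCAAT boxes, 2 of which overlap each other. Among 32851 promoter windows of this length, 35.7% held a GC box and 37.4% a CCAAT box. A sterol regulatory element in the spelling TCACNCCAC occurred in 1.24% of all windows and the E-box CACGTG in 7.15%, and neither was found in the windows of the 8 members in the table. Their absence says only that these letters are not in these windows.

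In hepatocyte-like cells the 10 genes together made up 802 CPM in hKO (774 to 831) and 596 CPM in WT (570 to 622). That order is set by Scd1: the other 9 members summed to 344 CPM in hKO (326 to 364) and 390 CPM in WT (369 to 412). A gene was called different where either library had 50 CPM or more, the log2 ratio was 1 or larger in size, and 0 lay outside its interval. By this rule 2 members were higher in hKO, Scd1 and Me1, against a background of 10.7% of all 3783 genes at that level. Only Lpin1 was lower, against a background of 42.2%. Of the 10 members, 5 reached 50 CPM, with a median log2 ratio of 0.28. The median over all 3783 genes at that level was −0.78. Over all 10 members the log2 ratio had a median of 0.11, with 5 above 0 and 5 below. The CPM scale carries a shift of −0.27 between the libraries, the median log2 ratio of the 1881 genes at 50 CPM or more in both.

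**Figure D1:**
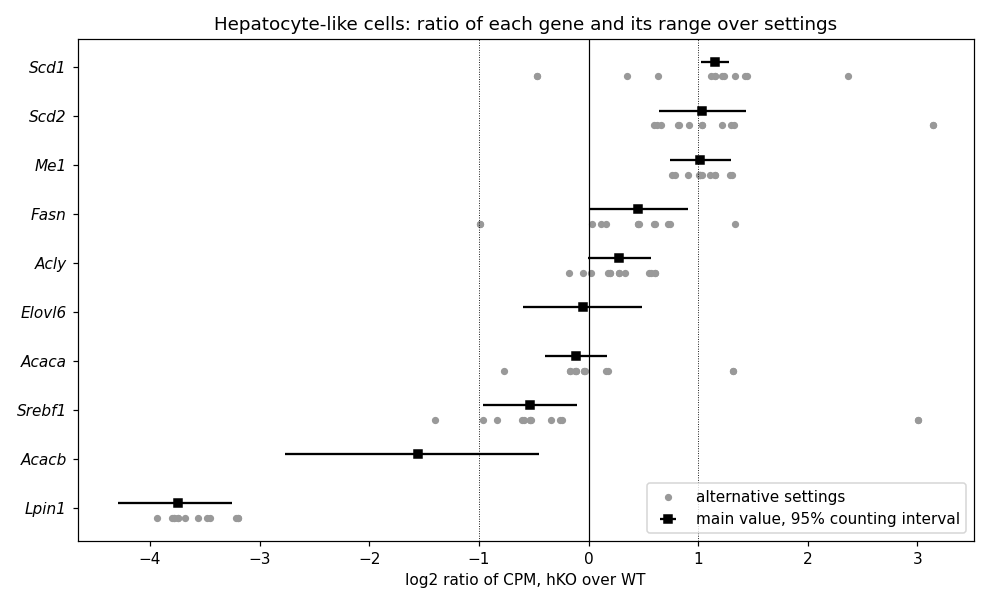
Log2 ratio of CPM, hKO over WT, of each member in hepatocyte-like cells (black squares, 95% counting interval) and under each of 13 alternative settings (grey points). Dotted lines mark a ratio of 1 in size. Lpin1 lies below −3 in every setting and Me1 above 0 in every setting, whereas Scd1 lies on both sides of 0. Elovl6 and Acacb, under 20 CPM in both libraries, were not followed through the alternatives.

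Acly, ATP citrate lyase, makes the cytosolic acetyl-CoA on which the pathway depends. It had 241 UMIs (64.5 CPM) in hKO hepatocyte-like cells and 176 UMIs (53.2 CPM) in WT ones, a log2 ratio of 0.28 (−0.0076 to 0.57). Its level was 56.3, 66.3 and 75.6 CPM in hKO clusters 4, 22 and 25, against 43.7 and 56.3 CPM in WT clusters 43 and 44. The counting intervals of all 5 clusters overlapped.

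Acaca and Acacb encode the acetyl-CoA carboxylases, the cytosolic enzyme that supplies malonyl-CoA for synthesis and the mitochondrial-membrane enzyme whose malonyl-CoA restrains fatty acid oxidation. Acaca had 216 UMIs (57.8 CPM) in hKO and 207 UMIs (62.5 CPM) in WT, a log2 ratio of −0.11 (−0.40 to 0.17). Within each library Acaca separated the clusters: it was 28.6, 82.3 and 8.89 CPM in hKO clusters 4, 22 and 25, against 24.8 and 73.7 CPM in WT clusters 43 and 44. The highest cluster of each library was the one that supplied most of its class's UMIs. Without WT cluster 44 the log2 ratio of Acaca was 1.32. Acacb was scarce, with 10 UMIs (2.68 CPM) in hKO and 26 UMIs (7.86 CPM) in WT, a log2 ratio of −1.55 (−2.77 to −0.45) under the floor of the rule.

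Fasn, fatty acid synthase, had 108 UMIs (28.9 CPM) in hKO and 70 UMIs (21.2 CPM) in WT, a log2 ratio of 0.45 (0.0037 to 0.91). The clusters spread widely, at 13.8, 37.7 and 22.2 CPM in hKO clusters 4, 22 and 25, against 56.8 and 10.9 CPM in WT clusters 43 and 44. The highest and the lowest of these 5 levels were both WT, and without cluster 44 the log2 ratio was −0.99.

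Me1, cytosolic malic enzyme, supplies NADPH for synthesis. It had 352 UMIs (94.2 CPM) in hKO hepatocyte-like cells and 154 UMIs (46.5 CPM) in WT ones, a log2 ratio of 1.02 (0.74 to 1.30), or 2.02-fold higher in hKO. All 3 hKO clusters lay above both WT clusters: 53.5, 121 and 60.0 CPM in clusters 4, 22 and 25, against 36.4 and 47.7 CPM in clusters 43 and 44. The intervals of hKO clusters 4 and 25 overlapped those of the WT clusters, and cluster 22 stood apart from them. The ratio was above 0 in 13 of 13 alternatives (0.76 to 1.31) and at least 1 in 10 of them. With each cell thinned to 1000 UMIs, Me1 was detected in 8.38% of hKO cells (6.57 to 10.5) and 2.56% of WT cells (1.11 to 4.99) of the hepatocyte-like class. In T-like cells, with 4.38 CPM of Me1 in hKO and 0.515 CPM in WT, these shares were 0.438% in hKO and 0.0736% in WT. Unthinned, 17.4% of hKO and 20.1% of WT hepatocyte-like cells had a Me1 UMI, at median depths of 1510.5 and 1757.5 UMIs. These medians do not show the 107 WT cells of cluster 44, at a median of 21977 UMIs, so the unthinned shares are not at matched depth. Thinning left out 305 hKO and 126 WT cells as too shallow.

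Elovl6, the elongase that turns palmitate into stearate, did not separate the libraries in hepatocyte-like cells. It had 62 UMIs (16.6 CPM) in hKO and 57 UMIs (17.2 CPM) in WT, a log2 ratio of −0.053 (−0.60 to 0.49).

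Scd1, the main stearoyl-CoA desaturase of liver, had the most UMIs of the members, 1711 (458 CPM) in hKO hepatocyte-like cells and 681 (206 CPM) in WT ones. The log2 ratio was 1.15 (1.03 to 1.28), or 2.23-fold higher in hKO. That direction rests on 1 WT cluster. Scd1 was at 573, 383 and 551 CPM in hKO clusters 4, 22 and 25, against 662 CPM in WT cluster 43 and 83.8 CPM in WT cluster 44. WT cluster 44 stood below each hKO cluster, and WT cluster 43 had the highest level, with an interval (602 to 726) that overlapped those of hKO clusters 4 and 25. Without cluster 44 the log2 ratio was −0.47, and without clusters 25 and 43, which have the lowest depth per cell, it was 2.36. At a mitochondrial limit of 10% in place of 25% it was 0.35, which is not a call. Cluster 44 differed from the others also in depth per cell (a median of 21977 UMIs against 955.5 to 2270.5) and mitochondrial share (3.59% against 11.6% to 21.5%), and their part in the low Scd1 level was not tested. The thinned share of cells with a Scd1 UMI was 31.6% in hKO and 19.2% in WT hepatocyte-like cells, against 4.16% in hKO and 2.58% in WT T-like cells. The unthinned shares in hepatocyte-like cells were 45.8% in hKO and 43.2% in WT.

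Scd2, a desaturase best known from brain and developing tissue, had 180 UMIs (48.2 CPM) in hKO and 78 UMIs (23.6 CPM) in WT. Its log2 ratio of 1.03 (0.64 to 1.43) came with levels under 50 CPM in both libraries, so it was not called. Scd2 was at 92.2, 20.4 and 75.6 CPM in hKO clusters 4, 22 and 25, against 4.37 and 28.7 CPM in WT clusters 43 and 44. WT cluster 43 thus had the highest Scd1 and the lowest Scd2 of the 5 clusters.

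Srebf1 encodes SREBP-1, the transcription factor that drives most of the genes above. It had 82 UMIs (21.9 CPM) in hKO and 105 UMIs (31.7 CPM) in WT, a log2 ratio of −0.53 (−0.97 to −0.10) under the floor of the rule. Cluster levels were 38.7, 10.9 and 35.6 CPM in hKO clusters 4, 22 and 25, against 2.92 and 40.0 CPM in WT clusters 43 and 44. Srebf1 was lowest in WT cluster 43, where Scd1 and Fasn were highest, and highest in WT cluster 44, where both were lowest, though its intervals in clusters 4, 25 and 44 overlapped. Without cluster 44 its log2 ratio was 3.01, from only 2 WT UMIs.

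Lpin1 encodes lipin 1, the phosphatidate phosphatase that makes diacylglycerol and, in mouse liver, also acts as a coactivator of fatty acid oxidation genes. It had 35 UMIs (9.37 CPM) in hKO hepatocyte-like cells and 417 UMIs (126 CPM) in WT ones. The log2 ratio was −3.75 (−4.29 to −3.25), or 13.4-fold lower in hKO, the largest difference among the members. Every hKO cluster lay far below every WT cluster: 7.38, 10.9 and 6.67 CPM in clusters 4, 22 and 25, against 90.4 and 137 CPM in clusters 43 and 44. The ratio stayed between −3.94 and −3.20 in 13 of 13 alternatives. After thinning, Lpin1 was detected in 0.740% of the hKO cells (0.272 to 1.60) and 6.41% of the WT cells (3.96 to 9.73), and the unthinned shares were 2.78% in hKO and 30.6% in WT. In T-like cells, which express the gene, the thinned shares were 3.57% in hKO and 5.23% in WT.

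**Figure D2:**
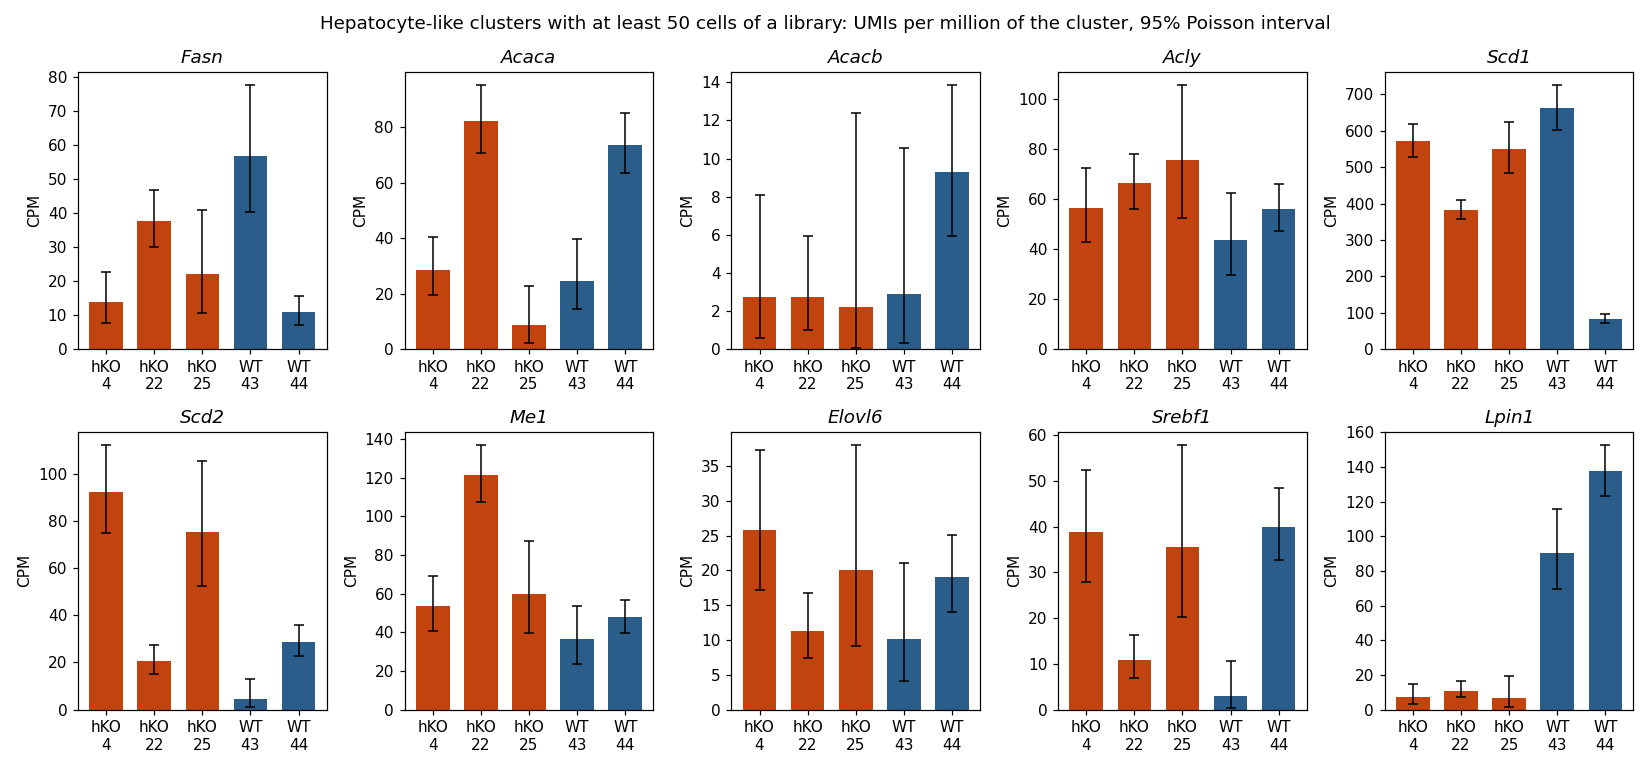
CPM of each member in the hepatocyte-like clusters that hold at least 50 cells of a library (hKO clusters 4, 22 and 25, orange; WT clusters 43 and 44, blue), with 95% Poisson intervals. Lpin1 and Me1 separate the libraries in the order of all 5 clusters, and Scd1 does not, with 662 and 83.8 CPM in the WT clusters above and below the hKO ones.

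Genes around the pathway were read from 7 lists of 89 genes, 87 of them measured. Of these 46 reached 50 CPM in hepatocyte-like cells, 3 were called higher in hKO and 10 lower, against the same backgrounds of 10.7% and 42.2% of all genes at that level. The median log2 ratio of the genes at 50 CPM in each list ran from −1.05 for insulin and AMPK signalling to 0.35 for the supply of citrate and acetate, against −0.78 over all genes. The higher ones were Fads2, the delta-6 desaturase of polyunsaturated fat (170 CPM in hKO and 64.4 CPM in WT, log2 1.40), Slc2a2, the hepatocyte glucose transporter GLUT2 (267 CPM in hKO and 96.1 CPM in WT, log2 1.48), and Agpat2, an acyltransferase that makes phosphatidate (160 CPM in hKO and 47.1 CPM in WT, log2 1.76). Slc2a2 was above both WT clusters in every hKO cluster, with 399, 199.95 and 278 CPM in clusters 4, 22 and 25 against 24.8 and 116 CPM in clusters 43 and 44. Agpat2 was likewise at 216, 132 and 162 CPM in the hKO clusters, against 64.1 and 41.5 CPM in the WT ones. Fads2 had 291, 94.98 and 247 CPM in hKO clusters 4, 22 and 25, against 144 and 43.1 CPM in WT clusters 43 and 44, which overlap in range, and its log2 ratio was 0.29 without cluster 44.

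Among the lower ones, Pgls, which acts in the NADPH-producing pentose phosphate pathway, had 124 CPM in hKO and 263 CPM in WT (log2 −1.08), and Rxra, the shared partner of lipid-sensing nuclear receptors, 48.2 CPM in hKO and 104 CPM in WT (log2 −1.10). For both, all 3 hKO clusters lay below the WT clusters. In the list of insulin and AMPK signalling, 6 of 12 genes reached 50 CPM, of which 3 were lower, a share near the background, and none higher: Fbxw7, a ubiquitin ligase subunit that marks SREBP for destruction (log2 −2.34), Irs1, the insulin receptor substrate (−1.85), and Prkag1, an AMPK subunit (−1.32). Glycerolipid assembly had 9 of 15 genes at 50 CPM, 1 of them higher and 3 lower, Agpat5 (−1.88), Lpin2 (−1.76) and Plpp3, which dephosphorylates lipid phosphates (−1.30). The elongase Elovl7 (−1.88) and the SREBP escort protein Scap (−1.42) completed the 10, and neither of the 2 genes of mitochondrial fatty acid synthesis that reached 50 CPM, of 8 measured, was called. Prkag1, Lpin2 and Plpp3 were named after their values were seen. Most of these lower calls rest on WT cluster 44. Lpin2, for example, was at 33.2 to 127 CPM in the hKO clusters, against 62.7 CPM in WT cluster 43 and 369 CPM in WT cluster 44. Without cluster 44 the direction was the same for 7 of the 13 called genes, including Slc2a2 (3.29), Agpat2 (1.26) and Pgls (−1.26), the 3 that stayed past 1 in size. It was reversed for Elovl7, Scap, Irs1, Agpat5, Lpin2 and Plpp3.

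Across the 11 compared classes, the members differed in where they were found. Me1 was mostly in hepatocyte-like cells. That class held 64.4% of Me1 UMIs and 7.72% of all UMIs in hKO, and 51.5% of Me1 UMIs and 7.40% of all UMIs in WT. Its next compared class was B-like in hKO, at 5.51 CPM, and erythroid-like in WT, at 1.83 CPM from 2 UMIs. Hepatocyte-like cells were not its only site, since cholangiocyte-like cells, too few to be compared, had 32 Me1 UMIs in 32 hKO cells (86.4 CPM, 59.1 to 122) and 104 UMIs in 66 WT cells (115 CPM, 93.8 to 139). Stellate or fibroblast-like cells had 6 Me1 UMIs in each library, from 18 hKO and 31 WT cells. In the other compared classes Me1 was close to or below the level that free hepatocyte RNA would give, when the profile of hepatocyte-like cells is scaled to the class's share of the 12 abundant hepatocyte genes.

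That share was higher in hKO in all 10 other compared classes, for example 1.03% of UMIs in hKO against 0.226% in WT in B-like cells, and 0.673% in hKO against 0.207% in WT in macrophage-like cells. For Scd1 the scaled level was 84.9% to 114% of the measured one in hKO plasmacytoid dendritic-like, neutrophil-like, conventional dendritic-like, NK or innate lymphoid-like, monocyte-like and erythroid-like cells. In the same WT classes it was 13.6% to 43.7%. In these hKO classes, Scd1 made by the cells and free hepatocyte RNA cannot be told apart. With the scaled level subtracted, the log2 ratio of Scd1 in monocyte-like cells was −2.77, from 7 hKO and 27 WT UMIs, in place of 0.95. In the other compared hKO classes the scaled level of Me1 exceeded the measured one, except in endothelial-like cells (85.5%). It was 152% of the measured level in hKO monocyte-like cells and 174% in hKO macrophage-like cells. Subtraction may thus take away too much, and the subtracted ratios carry no interval. The scaled levels come from the pooled hepatocyte-like cells of each library. In WT, clusters 43 and 44 had very unlike Scd1 levels. In hKO, cluster 22, which supplied 58.9% of the class's UMIs, had less Scd1 than clusters 4 and 25. The percentages of both libraries and the subtracted ratios, here and below, therefore depend on that mix, and other mixes were not tested. In hKO T-like, macrophage-like and endothelial-like cells the scaled Scd1 level was 76.3%, 54.9% and 48.7% of the measured one, and in the same WT classes it was 27.3%, 12.1% and 24.8%. For members other than Scd1, wherever they reached 20 CPM in these 10 classes, the scaled level was at most 23.3% of the measured one.

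**Figure D3:**
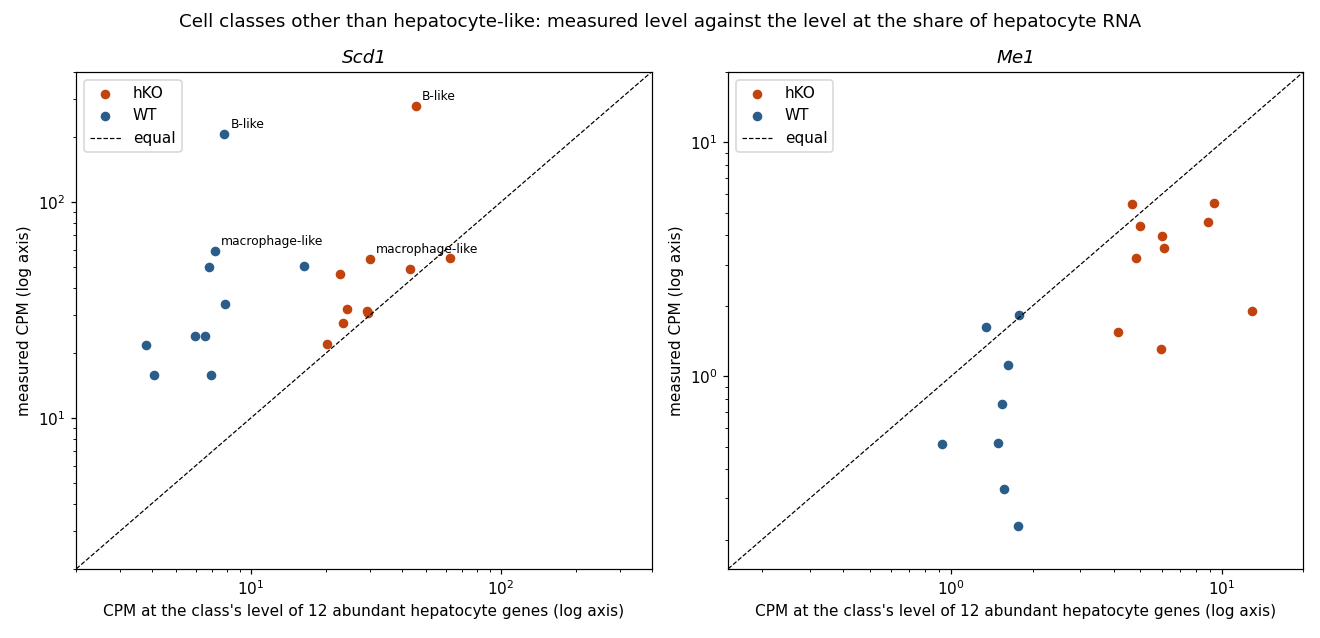
Measured CPM of Scd1 (left) and Me1 (right) in the 10 compared classes other than hepatocyte-like (hKO orange, WT blue), against the CPM given by the hepatocyte-like profile scaled to the class's share of 12 abundant hepatocyte genes, both on log axes. B-like cells stand far above the line of equality for Scd1 in both libraries, several hKO classes lie on it, and most points for Me1 lie on or below it. Classes with 0 UMIs are not drawn.

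Scd1 was also high in B-like cells, with 960 UMIs (278 CPM, 261 to 296) in hKO and 897 UMIs (205 CPM, 192 to 219) in WT. The scaled hepatocyte level there was 16.4% of the measured one in hKO and 3.81% in WT. The B-like log2 ratio of 0.44 (0.31 to 0.57) did not reach the size of a call and was −0.11 at a mitochondrial limit of 10%. Each B-like cluster showed the high level, 283 and 307 CPM in hKO clusters 23 and 31, against 208 and 181 CPM in WT clusters 32 and 34. In WT, the pooled hepatocyte-like level of Scd1 overlapped the B-like one, though hepatocyte-like cluster 43 lay above the B-like level and cluster 44 below it. Macrophage-like cells followed in WT at 59.3 CPM. Macrophage-like clusters differed among themselves. The cluster led by Gpnmb, Trem2 and Lpl (cluster 9) had 28.5 CPM of Scd1 in hKO, against 65.1 CPM in the other hKO macrophage-like clusters, a log2 ratio of −1.19 (−1.62 to −0.78). In WT it had 16.2 CPM, against 71.2 CPM in the others, a log2 ratio of −2.14 (−2.77 to −1.57). Over all macrophage-like cells the scaled hepatocyte level of Scd1 was 29.8 CPM in hKO and 7.15 CPM in WT. The hKO level of cluster 9 lay near this value of the whole class. The share of abundant hepatocyte genes in cluster 9 itself was not measured, so the part of free hepatocyte RNA in its Scd1 was not tested. Cluster 21, led by the Kupffer cell genes Cd5l, Vsig4 and Clec4f, had 88.7 CPM in hKO and 72.6 CPM in WT. These cluster contrasts were chosen after the data were seen.

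Scd2 had a different distribution from Scd1. Because 3′ UMI counts are not divided by transcript length, the share of Scd2 among the UMIs of both desaturases compares classes and not the absolute amounts of the 2 transcripts. The share was low in B-like cells, 6.89% in hKO (5.42 to 8.61) and 9.39% in WT (7.65 to 11.4), and in hepatocyte-like cells, 9.52% in hKO and 10.3% in WT. The WT hepatocyte-like share pools clusters 43 and 44, which had unlike Scd1 and Scd2 levels as given above, and is the share of neither. Few UMIs stood behind the shares in neutrophil-like cells, 20% in hKO (9.05 to 35.6) and 9.43% in WT (3.14 to 20.7), and in erythroid-like cells, 14.7% in hKO (4.95 to 31.1) and 11.9% in WT (3.98 to 25.6). It was highest in plasmacytoid dendritic-like cells in hKO, 76.9% (73.4 to 80.1) against 64.0% in WT (52.9 to 74.0), and in endothelial-like cells in WT, 56.5% in hKO (50.6 to 62.2) against 70.5% in WT (66.7 to 74.2). Shares of 36.5% to 66.1% were found in hKO T-like, NK or innate lymphoid-like, macrophage-like, monocyte-like and conventional dendritic-like cells, and of 31.3% to 50.6% in the same WT classes.

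**Figure D4:**
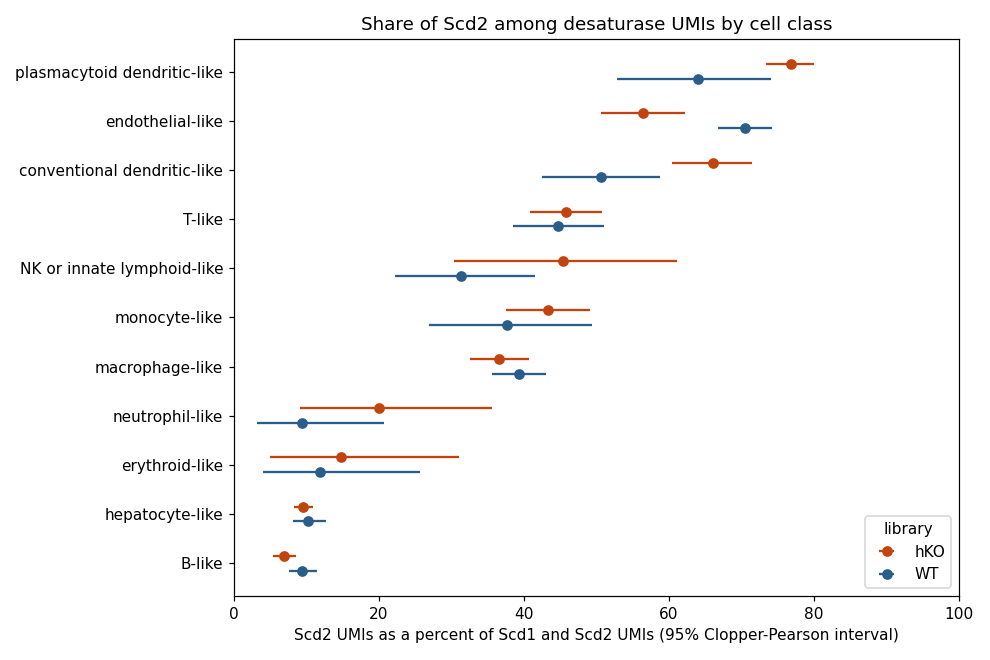
Scd2 UMIs as a percent of Scd1 and Scd2 UMIs in each compared class (hKO orange, above; WT blue, below), with 95% Clopper-Pearson intervals. Hepatocyte-like and B-like cells lie near 10% in both libraries, and plasmacytoid dendritic-like cells reach 76.9% in hKO and 64.0% in WT. The WT hepatocyte-like point pools clusters 43 and 44, whose Scd1 and Scd2 levels were unlike.

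Plasmacytoid dendritic-like cells, the professional interferon producers, were the other class with called members. Scd2 had 488 UMIs (91.6 CPM) in 928 hKO cells and 55 UMIs (28.1 CPM) in 289 WT cells, a log2 ratio of 1.71 (1.30 to 2.14). Acly had 409 UMIs (76.8 CPM) in hKO and 73 UMIs (37.3 CPM) in WT, a log2 ratio of 1.04 (0.68 to 1.42). Both were called higher, against a background of 3.68% of 3803 genes, and no member was called lower. Acaca had 85.4 CPM in hKO and 48.0 CPM in WT, a log2 ratio of 0.83 (0.51 to 1.17), and Scd1 had 27.6 CPM in hKO and 15.8 CPM in WT, a ratio of 0.80. Free hepatocyte RNA, scaled as above, would give 23.4 CPM of that Scd1 in hKO and 4.10 CPM in WT, and with it subtracted the ratio was −1.46. Srebf1 had 26.1 CPM in hKO and 16.8 CPM in WT (0.63, 0.075 to 1.22). Elovl6 had 73.0 CPM in hKO and 87.3 CPM in WT (−0.26, −0.52 to 0.010). The 4 members at 50 CPM or more had a median ratio of 0.94, against −0.15 for all genes at that level. Over all 10 members the median was 0.82, and the ratio was above 0 for 9 of them. The intervals of Fasn, Acacb, Me1 and Lpin1 included 0. These 9 include Scd1, which turns as just given, and Me1, whose scaled level was 151% of the measured one in hKO. In all 11 alternatives for this class, Scd2 stayed between 1.48 and 1.84, and Acly between 0.90 and 1.18, at 1 or more in 9 of them.

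The hKO cells of this class lay mainly in cluster 26 (881 cells) and the WT cells in cluster 27 (258 cells). Scd2 was at 92.4 CPM in hKO cluster 26 and 28.1 CPM in WT cluster 27, and Acly was at 78.0 CPM in hKO cluster 26 and 36.3 CPM in WT cluster 27. Both clusters had all 8 plasmacytoid dendritic markers raised. Median depth was 5794 UMIs per cell in hKO and 7074 in WT, the mitochondrial share 8.41% in hKO and 5.43% in WT, and the share of abundant hepatocyte genes 0.529% in hKO and 0.118% in WT. Their part in the result was not tested, except that free hepatocyte RNA at that share would give 2.46 CPM of Scd2 and 3.30 CPM of Acly in hKO. After thinning to 1000 UMIs, 8.99% of hKO cells (7.23 to 11.03) and 2.13% of WT cells (0.785 to 4.57) had a Scd2 UMI, and the unthinned shares were 37.2% in hKO and 14.5% in WT.

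Scd2 was higher in hKO in other myeloid cells too, at levels under the floor of the rule. In monocyte-like cells it had 23.3 CPM in hKO and 9.54 CPM in WT, a log2 ratio of 1.29 (0.70 to 1.92), and in conventional dendritic-like cells 42.9 CPM in hKO and 22.3 CPM in WT, a ratio of 0.94 (0.56 to 1.34). Here cells of both libraries shared clusters. Monocyte-like cluster 7 had 16.2 CPM in hKO and 5.97 CPM in WT, and cluster 8 had 29.5 CPM in hKO and 15.0 CPM in WT. Conventional dendritic-like cluster 14, led by Cd209a, had 55.6 CPM in hKO and 26.0 CPM in WT, and cluster 18, led by Xcr1 and Naaa, 37.5 CPM in hKO and 19.8 CPM in WT. The intervals of the libraries did not overlap in clusters 7 and 14, and they overlapped in clusters 8 and 18 and in conventional dendritic-like cluster 24, with 9 hKO and 3 WT UMIs. Macrophage-like cells went the other way, at 31.2 CPM in hKO and 38.3 CPM in WT (−0.30, −0.57 to −0.031). T-like cells had 26.9 CPM in hKO and 19.4 CPM in WT (0.47, 0.12 to 0.82). In the other 5 compared classes the interval of the ratio included 0.

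Elovl6 was highest in NK or innate lymphoid-like cells, with 70 UMIs (91.5 CPM) in hKO and 139 UMIs (105.6 CPM) in WT, followed by plasmacytoid dendritic-like cells. Those classes overlapped within each library and stood apart from the next class, conventional dendritic-like at 29.5 CPM in hKO and T-like at 20.4 CPM in WT. The interval of the Elovl6 ratio excluded 0 in 3 compared classes: macrophage-like cells, with 9.63 CPM in hKO and 5.14 CPM in WT (log2 0.91, 0.30 to 1.53), conventional dendritic-like cells, with 29.5 CPM in hKO and 18.0 CPM in WT (0.71, 0.27 to 1.17), and T-like cells, with 26.1 CPM in hKO and 20.4 CPM in WT (0.36, 0.013 to 0.70).

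Acacb was at most 2.75 CPM in the immune classes and highest in endothelial-like cells, with 46 UMIs (16.7 CPM, 12.2 to 22.3) in hKO and 101 UMIs (13.7 CPM, 11.1 to 16.6) in WT. In hKO these stood apart from hepatocyte-like cells at 2.68 CPM, and in WT they overlapped hepatocyte-like cells at 7.86 CPM. NK or innate lymphoid-like and neutrophil-like cells had 0 Acacb UMIs in both libraries. The upper limit of the interval for a count of 0 was 4.82 and 5.61 CPM in these hKO classes, and 2.80 and 3.87 CPM in the WT ones. Endothelial-like cells also had the most Acly in hKO, 86.8 CPM in hKO against 60.7 CPM in WT (log2 0.52, 0.28 to 0.74). Within shared clusters Acly was at 100.3 CPM in hKO and 65.2 CPM in WT in cluster 5, and at 76.9 CPM in hKO and 59.0 CPM in WT in cluster 13, led by genes such as Stab2 of sinusoidal endothelium. The intervals of the libraries overlapped in both clusters.

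Lpin1 outside hepatocytes was highest in NK or innate lymphoid-like cells, 57.5 CPM in hKO and 54.7 CPM in WT, and in T-like cells, 40.9 CPM in hKO and 50.3 CPM in WT (log2 −0.30, −0.54 to −0.058). The interval of its ratio included 0 in 7 of the 10 classes other than hepatocyte-like. The remaining ones were T-like cells, neutrophil-like cells with 9 hKO and 3 WT UMIs (log2 2.12, 0.12 to 4.64), and erythroid-like cells with 2 hKO and 3 WT UMIs. T-like cells of cluster 16, led by cell cycle genes such as Mki67 and Top2a, had less Lpin1 than the other T-like clusters, 25.9 against 48.7 CPM in hKO and 11.3 against 57.7 CPM in WT. They had more Scd2, 36.7 against 23.1 CPM in hKO (log2 0.67, 0.23 to 1.11) and 37.2 against 16.4 CPM in WT (1.18, 0.55 to 1.78). Those contrasts were also chosen after the data were seen.

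Acaca was seen in every compared class. It lay between 13.3 and 85.4 CPM over the hKO classes and between 1.83 and 66.8 CPM over the WT ones, lowest in erythroid-like cells in both libraries. Fasn was highest in hepatocyte-like and NK or innate lymphoid-like cells, at 28.9 and 22.2 CPM in hKO and at 21.2 and 22.8 CPM in WT, with overlapping intervals. Srebf1 was at 26.1 CPM in hKO plasmacytoid dendritic-like cells, the top hKO class, and at 31.7 CPM in WT hepatocyte-like cells, the top WT class. It overlapped hepatocyte-like cells in hKO and stood apart from the next class, endothelial-like at 17.8 CPM, in WT.

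**Figure D5:**
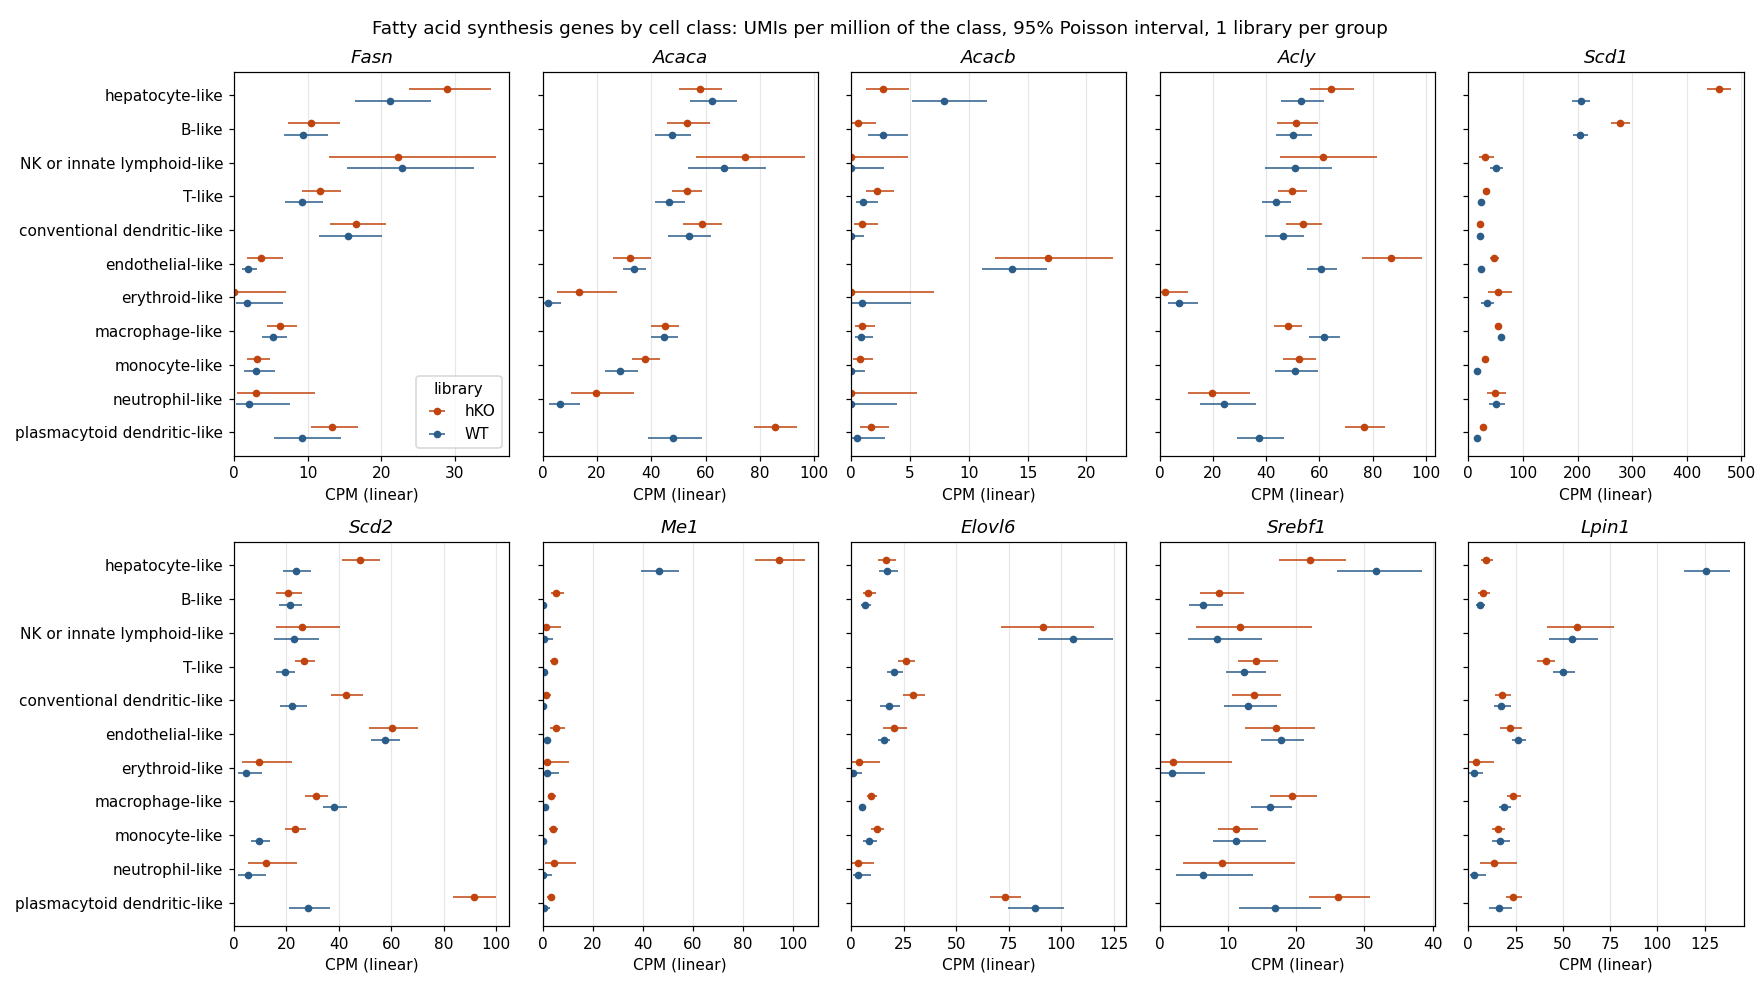
CPM of the 10 members in the 11 compared classes (hKO orange, above; WT blue, below), with 95% Poisson intervals on linear axes that differ between panels. Scd1 and Me1 peak in hepatocyte-like cells, Scd1 also in B-like cells, Elovl6 in plasmacytoid dendritic-like and NK or innate lymphoid-like cells, Acacb in endothelial-like cells, and Lpin1 in WT hepatocyte-like cells.

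Likeness of pattern was measured as Pearson's r of log2(CPM + 10) over the 22 points given by 11 classes in 2 libraries, for 7632 genes that reached 50 CPM in a class. The points of a library share its depth and free RNA, so r is a description. Me1 was most like Sec14l2, Maob and Agxt2, each with r of 0.98. Scd1 was most like Chchd10 (0.84), Apoa4 (0.81) and Coq8a (0.80), and Scd2 like Spcs3 (0.84), Pank3 (0.82) and Ganab (0.81). For Elovl6 the nearest genes were Rtn4rl1 (0.93), Cd7 (0.88) and Sla2 (0.88), and for Lpin1 Zwint (0.87), Tnfrsf18 (0.86) and Bex3 (0.84). Acaca was most like Dad1 (0.94), Ssbp1 (0.93) and Map3k4 (0.93), and Acly like Larp4 (0.93), Sdha (0.93) and Eif4b (0.93). Among the members, Acaca and Acly (0.78), Acly and Scd2 (0.75) and Scd1 and Me1 (0.71) were most alike, whereas Scd1 and Scd2 had r of 0.038.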

How the data were processed

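Per the file headers, the deposited matrices hold raw UMI counts per gene and cell barcode, written by the authors with Cell Ranger 7.1.0. The submitters' processing notes name Cell Ranger, R 3.0, Seurat 3 and the build mm9. The sources used here do not say whether intronic reads were counted. The hKO matrix held 18657 barcodes and 68010317 UMIs, and the WT matrix 14289 barcodes and 58772330 UMIs. Cells with at least 200 genes, 500 UMIs and at most 25% mitochondrial UMIs were kept, 11451 in hKO and 9853 in WT. Scrublet's own threshold marked 0.0175% of hKO and 0% of WT cells and was set aside as not working. The highest-scoring 9.16% of hKO and 7.88% of WT cells, the expected doublet rate, were removed instead (1049 and 777 cells).

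Both libraries were clustered together in scanpy 1.11.5 (Python 3.11.15, igraph 0.11.9) from 2000 variable genes, 30 principal components and 15 neighbors, by the Leiden method at resolution 2, with the 10 genes and Fabp5 kept out of the variable genes. A cluster took the name of the best-scoring of 15 marker lists where at least 3 of its markers were raised. It stayed unnamed where an unrelated type had 50% or more of its markers raised too, or its leading genes held more markers of any other type, which applied to 4 clusters (856 hKO and 341 WT cells). Rebuilt names may differ from the study's own.

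UMIs were summed per class and library. Levels carry exact Poisson intervals, ratios exact conditional binomial intervals and shares Clopper-Pearson intervals, computed in scipy 1.17.1. With 1 library per group there is no test. The genes named are all 10 members in every compared class, the 2 largest called ratios of each pathway list, and for each member that reached 50 CPM the 3 genes most like it in pattern. The members, the lists and the clustering resolution were chosen with earlier results of these data known. The counting of calls was checked on simulated counts. Alternatives changed the resolution, seed, cell filters, doublet removal, scaling, level floor, class definition and free RNA.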

Additional observations from a re-analysis of the deposited data

How the results depend on the processing

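Among the recomputed log2 ratios of members, 567 moved by less than their counting interval, 51 moved more and 2 reversed a call. Both reversals were Scd1 in hepatocyte-like cells, at −0.47 with a clustering resolution of 1.0 and −0.47 without WT cluster 44, against 1.15. At resolution 1.0 the cells of that cluster stayed unnamed, so both alternatives leave them out. The same 2 alternatives moved the median of the members to 0.61 and 0.61, against 0.11 (it was −0.11 at a mitochondrial limit of 10%), and reversed Elovl7 (3.67), Scap (2.39), Irs1 (1.02), Agpat5 (0.072), Lpin2 (0.47) and Plpp3 (2.74). The members called higher in hepatocyte-like cells numbered 0 at a mitochondrial limit of 10%, where Me1 was 0.91, and 0 with hepatocytes taken per cell as those with at least 2% of UMIs from abundant hepatocyte genes, where Scd1 was 0.63 and Me1 0.79. In the other 11 alternatives 2 or 3 were called, and without cluster 44 they were Me1 (1.15) and Acaca (1.32) and not Scd1. Lpin1 was called lower in 13 of 13. The alternatives that left out the deep or the shallow hepatocyte-like clusters were chosen after seeing the data. The main clustering resolution of 2 was also chosen with an earlier result known, that resolution 1.0 left deep WT hepatocytes unnamed. The calls that reversed at resolution 1.0 therefore depend on that choice. Without the free hepatocyte RNA, scaled from the pooled hepatocyte-like cells of each library, the log2 ratio of Scd1 was −1.17 in T-like, −1.05 in macrophage-like and −1.46 in plasmacytoid dendritic-like cells. These values depend on the mix of hepatocyte-like clusters in each library, and the subtraction may take away too much, as given above for Me1. No paired analysis was possible because each group is 1 library. The called members rest on 35 to 1711 hKO UMIs, and at 10 hKO and 26 WT UMIs the depth gives Acacb an interval of −2.77 to −0.45.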

Other observations

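Cholangiocyte-like cells, the bile duct epithelium, were too few to be compared (32 hKO and 66 WT cells, with 370477 and 905936 UMIs). Acaca had 83.7 CPM in hKO (56.9 to 119) and 86.1 CPM in WT (68.1 to 107), Acly 64.8 CPM in hKO (41.5 to 96.4) and 80.6 CPM in WT (63.2 to 101), and Elovl6 40.5 CPM in hKO (22.7 to 66.8) and 46.4 CPM in WT (33.4 to 62.7). Each of these 3 pairs overlapped. Scd1 had 16 UMIs in hKO (43.2 CPM, 24.7 to 70.1) and 6 UMIs in WT (6.62 CPM, 2.43 to 14.4). Scd2 had 11 UMIs in hKO (29.7 CPM, 14.8 to 53.1) and 52 UMIs in WT (57.4 CPM, 42.9 to 75.3). The share of Scd2 among both desaturases in these cells was 40.7% in hKO (22.4 to 61.2) and 89.7% in WT (78.8 to 96.1), intervals that do not overlap. The 12 abundant hepatocyte genes made up 0.785% of the UMIs of cholangiocyte-like cells in hKO and 0.855% in WT. The hepatocyte-like profile scaled to that share would give 34.7 CPM of Scd1 in hKO, which is 80.5% of the measured level. Scd1 of these hKO cells and free hepatocyte RNA therefore cannot be told apart. In WT it would give 29.6 CPM, above the measured 6.62 CPM and its interval. The scaled level is thus too high for these WT cells, and the part of free RNA in their Scd1 was not tested. This class was singled out after its values were seen, from 1 library per group.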
